A study of Mus musculus with 127 samples.

Results

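The 55 genes described here encode splicing factors and RNA-binding proteins of the mouse. They comprise 11 SR genes (symbols Srsf), 20 heterogeneous nuclear ribonucleoprotein genes (Hnrnp), 9 genes of the SF3a and SF3b complexes (Sf3a, Sf3b), 12 genes of the proteins of small nuclear ribonucleoproteins, or snRNPs (Snrp), and 3 U2AF genes. They were chosen by symbol alone from 54838 gene rows, by a rule that uses no measured value. The rule was set with earlier results of these data known. In all 56 symbols matched, and 1 processed pseudogene among them was left out.

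The samples are poly(A) RNA of cortex from mice about 60 days old with mutations of Chd8, the gene of a chromatin remodeller linked to autism. In the germline line, Chd8+/5bpdel heterozygotes (HET) were set against wild-type (WT) littermates. Whole cortex gave 15 WT and 16 HET libraries, the nuclear fraction 12 WT and 9 HET, the synaptic fraction 11 WT and 7 HET, and the cytosolic fraction 5 WT and 7 HET. In conditional cortex, 8 Chd8+/flox mice without Cre were set against 6 Chd8+/flox mice with Camk2a-CRE, so Cre and the deletion cannot be told apart there. The conditional nuclear fraction gave 4 WT, 6 HET and 3 HOM libraries and the conditional synaptic fraction 4 WT, 5 HET and 5 HOM. All of these fractions came from mice with Camk2a-CRE, which carried no floxed Chd8 allele (WT), 1 (HET) or both (HOM). Camk2a drives Cre in excitatory forebrain neurons, so interneurons, glia and vessels keep Chd8. The question of the study was how the mutations change expression in whole cortex and in its cell compartments. In these bulk samples, fewer cells of a type and less RNA per cell cannot be told apart.

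The spliceosome removes introns from pre-mRNA in the nucleus. U2AF binds the end of an intron and brings in the U2 snRNP, whose SF3a and SF3b subunits hold the branch point. Sm proteins, encoded by several of the Snrp genes, form the core of most spliceosomal snRNPs. SR proteins bind exons and help splice sites to be used, hnRNPs often do the opposite, and several hnRNPs also move with mRNA into dendrites. Many SR and hnRNP genes limit their own output: their protein favours an unproductive form of the RNA, which holds a premature stop codon or a retained intron and is degraded or kept in the nucleus. Splicing is highly regulated in neurons, where spliced mRNA travels far from the cell body.

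Total counts ranged from 19 to 56.58 M (mega counts) per library in the germline line and from 24.42 to 134.6 M in the conditional line, with conditional cortex the deepest. Together the 55 genes took 0.5213 to 0.6942% of the counts in germline cortex, 0.79 to 1.248% in the germline nuclear fraction and 0.8717 to 1.028% in the cytosolic fraction. Germline synaptic libraries had a median of 0.3836%. Among them, WT male replicates 1 and 2 stood apart at 0.9336 and 0.9354%, and held 857 and 1221 CPM (counts per mega count of the library) of Malat1, a long RNA that stays in the nucleus, against 56 to 184 in the other WT synaptic libraries. Some results that rest on these 2 libraries, such as counts and SR medians, are also given without them. Values of single genes in germline WT animals include them unless stated. Against its label, the nuclear library of germline WT male replicate 7 held 547.1 CPM of the female marker Xist, and the male marker Ddx3y was at 0. The synaptic library with the same animal number (WT male replicate 6) had 34.64 CPM of Ddx3y and 2.61 of Xist, so this pair disagrees in sex. Germline nuclear HET female replicate 4 had neither marker (0.4284 CPM of Xist and 0 of Ddx3y). In addition, 1 conditional animal, left out of paired fits, carried different genotype labels for its 2 fractions (HET for nuclear and HOM for synaptic RNA). Markers of excitatory neurons (10 genes) were detected in every group, with mean summed levels from 5106 CPM in conditional nuclear WT to 8216 CPM in germline synaptic HET libraries. Chd8 itself was lower in HET germline cortex (log2 fold change -0.58, adjusted p = 7.9e-05) and differed by -0.01 to -0.82 in the other 8 genotype comparisons, none past the threshold.

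Several of these genes contain a so-called poison exon, whose inclusion brings a premature stop codon, and 27 of the 55 have an annotated transcript marked for nonsense-mediated decay. The following 30 bases each end at such a stop, written in capitals. They are shown because reads of these unproductive forms were summed into the same gene counts as reads of the coding forms. All 5 lie within the counted exons and were read from the GENCODE M21 transcripts on GRCm38.
Srsf3, chr17:29039458-29039487, plus strand: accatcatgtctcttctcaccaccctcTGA
Srsf4, chr4:131884361-131884390, plus strand: gtaacccggttgtctcatgccccagctTAG
Srsf9, chr5:115328399-115328428, plus strand: cctgggttggagattacggattcacagTAG
Srsf11, chr3:158023310-158023339, minus strand: gttgttcataaaacagcttttgaaagtTGA
Hnrnpl, chr7:28817364-28817393, plus strand: tctttcagaactgtgctaactcactgtTGA
In Srsf3 this stop lies in a 456-base exon (29039454 to 29039909) that no coding transcript of the gene contains.

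In whole cortex of germline WT mice the most abundant of these genes per length was Snrpn, the brain-enriched gene of SmN, an Sm protein, at 98.6 ± 7.65 RPKM (CPM per kilobase; SD, n = 15; 87.3 to 114). Hnrnpa0 followed at 76.9 ± 12.3 RPKM and Sf3b2, a large SF3b subunit, at 72.5 ± 3.498 RPKM. Hnrnpa1, an hnRNP that represses exons, reached 66.8 ± 9.47 RPKM and Srsf5 62.1 ± 17.95 RPKM. Snrpn stood more than 1 SD above its neighbour in this order, whereas Hnrnpa0, Sf3b2, Hnrnpa1 and Srsf5 each lay within 1 SD of the next. Hnrnpa2b1, whose protein carries mRNA along dendrites, had 55.1 ± 6.93 RPKM. The U2AF pair U2af1 and U2af2 were nearly equal per length, at 32.8 ± 2.41 and 32.3 ± 2.65 RPKM, but had 32.0 and 133 CPM. The deposited lengths of U2af1 (974 bases) and Sf3b2 (3231 bases) are shorter than their annotated exons together (2598 and 6822 bases). The RPKM of these genes, and their place in the order, depend on that length. Srsf2, an SR protein that stays in the nucleus, had 26.0 ± 5.20 RPKM and Sf3b1, the SF3b subunit that clasps the branch point, 24.4 ± 4.72 RPKM. At the low end were Snrpc at 3.09, Snrpf at 0.349 and U2af1l4 at 0.103 RPKM.

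**Figure D1:**
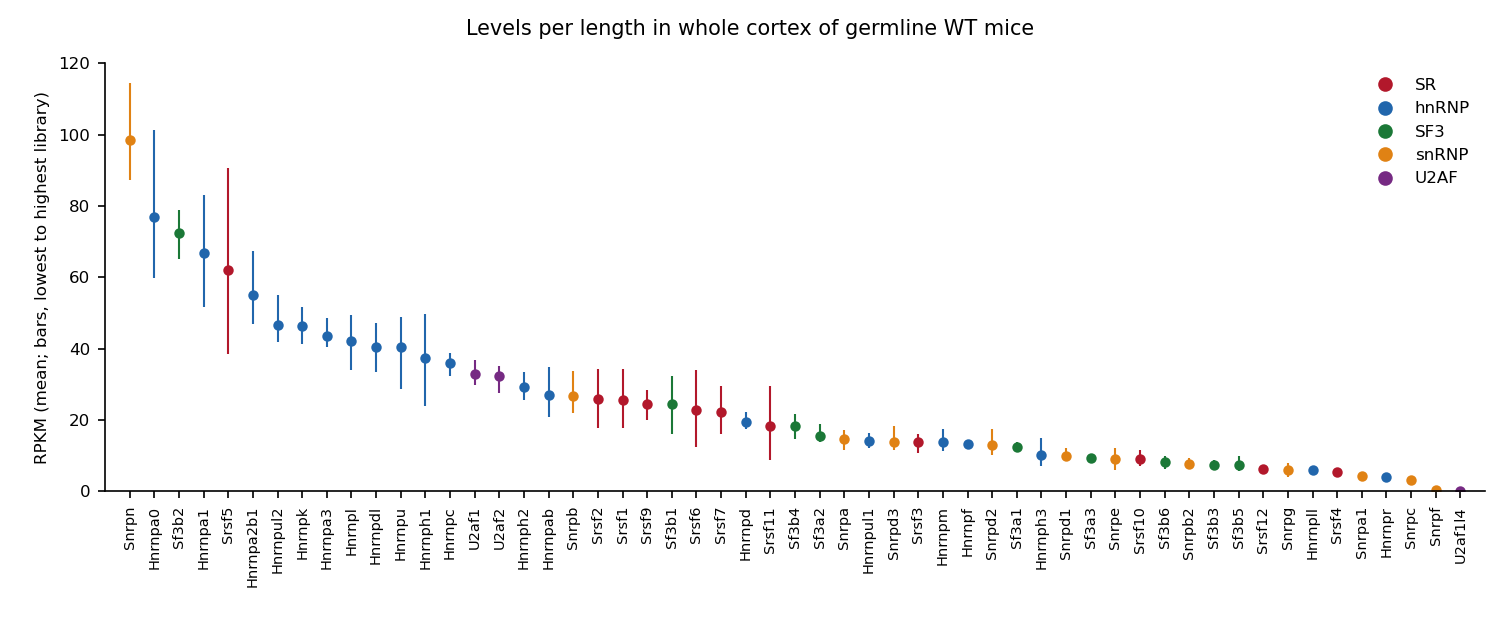
Level per length (RPKM, vertical axis) of each of the 55 genes in whole cortex of 15 germline WT mice, in falling order; points are means, bars run from the lowest to the highest library, and colours mark the 5 families. Snrpn leads at 98.6 RPKM, the bars of Srsf5 (38.5 to 90.7) and Srsf11 (8.85 to 29.6) are long for their height, and U2af1l4 is near 0.

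Among the families, SR genes had the highest median coefficient of variation between WT cortices, at 19.2%, against 11.1% for hnRNP genes, 9.78% for SF3 genes, 13.2% for snRNP genes and 15.03% for all 17074 genes tested. Srsf11 varied most among the better expressed ones (35.1%), followed by Srsf5 (28.9%), Srsf6 (28.5%), Hnrnph1 (23.2%), Hnrnph3 (22.9%) and Srsf7 (20.2%). Over the 31 germline cortex libraries the 55 pairs of SR genes had a median Pearson r of 0.73 (-0.06 to 0.98, 53 above 0). It was 0.80 in batch CHD807 (46 pairs above 0) and 0.72 in batch CHD80456 (54 above 0). Over the same libraries the mean log2 level of the SR genes and that of a list of nuclear-retained RNAs (Malat1, Neat1, Meg3 and others) had a Pearson r of 0.86 and a Spearman rho of 0.81. Without the 2 libraries farthest from the median of the nuclear-retained level, r was 0.80. Within batch CHD807 r was 0.82 (n = 16) and within batch CHD80456 it was 0.89 (n = 15). For hnRNP genes r was 0.71, with 0.54 and 0.86 in the 2 batches. For SF3 genes it was 0.17, but -0.68 within CHD807 and 0.37 within CHD80456, so the pooled value does not hold within batches. For snRNP genes it was 0.02, with -0.15 and 0.13. These are descriptions over libraries that share their scaling, and what makes the libraries differ was not tested.

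The clearest pattern in these genes was between cell compartments. Synaptic and nuclear libraries with the same animal number were compared for 10 germline WT, 5 germline HET, 4 conditional WT, 5 conditional HET and 3 conditional HOM animals, with log2 fold changes of synaptic over nuclear RNA after TMM scaling. All 11 SR genes were lower in synaptic RNA in each of the 5 comparisons. Among SF3 genes the direction was the opposite: 6 or 7 of 9 were higher and only Sf3b1 was lower. The hnRNP genes were mixed, with some lower and some higher. Of the 12 snRNP genes 5, 4, 4, 3 and 2 were higher, or 16.7 to 41.7%. Lower were 2, 2, 3, 2 and 2 of them, or 16.7 to 25%. Of all genes tested 24.7 to 34.5% were higher and 26.9 to 38.5% lower. The snRNP shares thus lay around those of all genes for higher, and under them for lower. Higher and lower are relative to the typical gene of each fraction.

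In germline WT animals 18 of 54 genes tested were higher in synaptic RNA and 26 lower, at an adjusted p under 0.05. Of all 18879 genes tested there, 65.9% passed, 30.8% as higher and 35.1% as lower. In germline HET animals 16 were higher and 25 lower (all genes 73%, with 34.5% higher and 38.5% lower). The counts were 18 and 26 in conditional WT (all genes 66.9%, with 31.9% higher and 35% lower), 17 and 24 in conditional HET (65%, with 31.5% and 33.5%) and 11 and 24 in conditional HOM animals (51.6%, with 24.7% and 26.9%). Most genes thus differed between these fractions, and the members' shares have to be read against that. Without the 3 germline WT animals in doubt (the 2 with a nuclear profile and the pair that disagrees in sex), 22 were higher and 25 lower, where 75.5% of all genes passed. In all 5 comparisons together 24 of the 54 were lower and 10 higher each time, and none passed in both directions. Among the 17380 genes tested in all 5, 22.5% were lower and 20.5% higher each time.

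**Figure D2:**
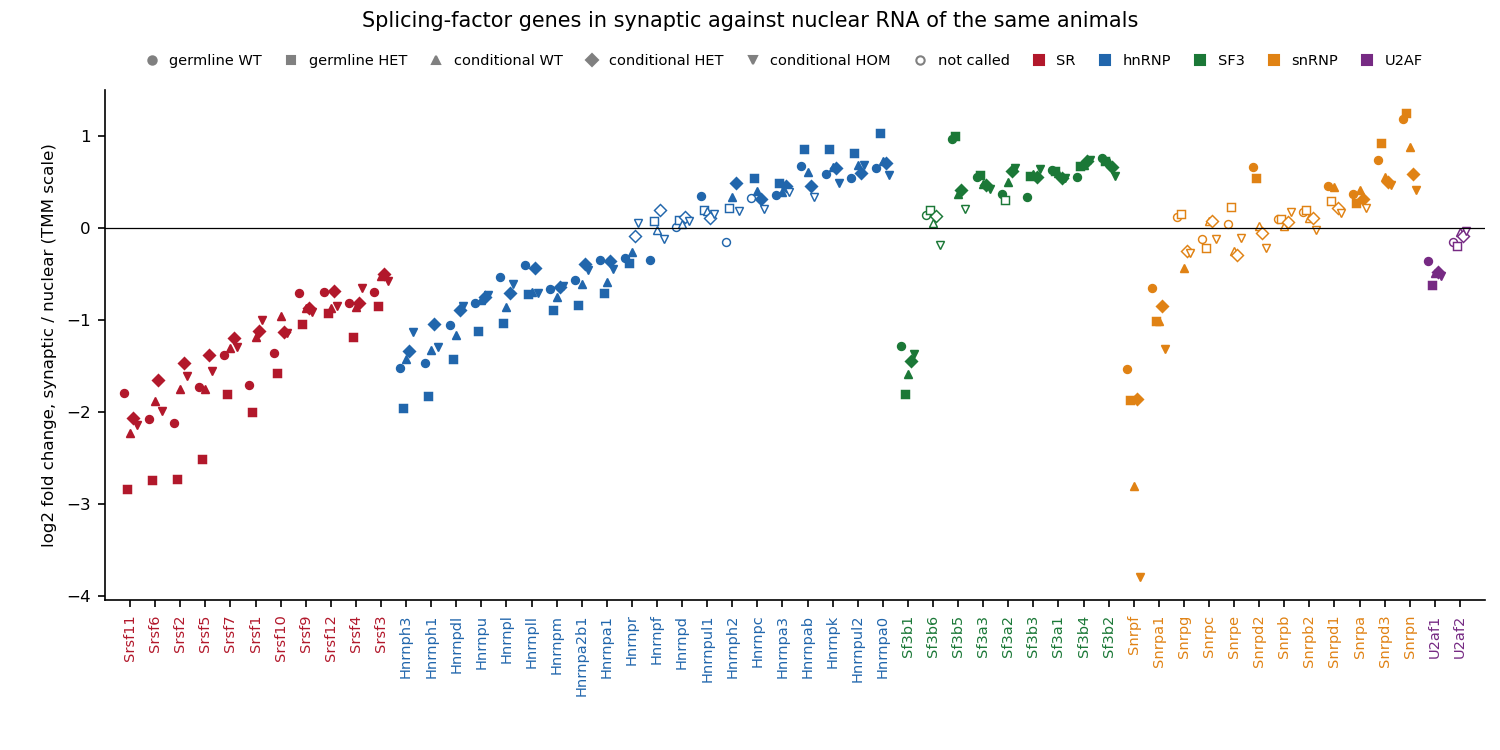
Log2 fold change of synaptic over nuclear RNA (TMM scale, vertical axis) for each gene tested, with 1 marker for each of the 5 animal groups; filled markers passed an adjusted p of 0.05, open ones did not, and colours mark families. All SR genes lie below 0 in all 5 groups, Sf3b1 lies apart from the other SF3 genes, and the hnRNP genes run from -1.96 (Hnrnph3) to 1.03 (Hnrnpa0).

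The SR genes differed most. Their median log2 fold change was -1.38 in germline WT, -1.80 in germline HET, -1.19 in conditional WT, -1.13 in conditional HET and -1.14 in conditional HOM animals, where the median of all genes was -0.06, -0.04, -0.06, -0.03 and -0.04. Without the 3 animals in doubt the germline WT median was -1.68. Summed over the 11 genes, germline nuclear libraries held 2937 ± 612 CPM (SD, n = 12) in WT and 2767 ± 273 CPM (SD, n = 9) in HET mice. The synaptic libraries held a median of 503 CPM in WT (419 to 2763, n = 11) and 421 ± 53.7 CPM (SD, n = 7) in HET mice. The highest synaptic sums are those of the 2 WT males with a nuclear profile.

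Srsf2 is encoded at chr11:116849901-116853094 on the minus strand. In the 5 germline HET animals it had 25.4, 25.6, 19.4, 19.2 and 27.02 CPM in synaptic RNA. Their nuclear RNA held 217, 238, 284, 199 and 234 CPM, so the fractions were far apart in every animal. The log2 fold change was -2.73 (SE 0.13, adjusted p = 8.2e-08). In the 4 conditional WT animals, synaptic RNA held 32.3, 34.3, 39.2 and 41.1 CPM and nuclear RNA 181, 198, 147 and 188 CPM, with a log2 fold change of -1.75 (SE 0.10, adjusted p = 4.2e-09). The groups did not overlap there either. The 10 germline WT animals had 22.6 to 175 CPM in synaptic RNA (median 30.6) and 178 to 400 CPM in nuclear RNA (median 260). All 10 were lower in synaptic RNA, with a log2 fold change of -2.12 (SE 0.27, adjusted p = 4.9e-05). Conditional HET animals gave -1.47 and conditional HOM animals -1.61.

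Srsf11, an SR-related protein gene at chr3:158010473-158036639 with a poison exon, showed the largest difference among the SR genes in 4 of the 5 comparisons. Germline HET animals had 64.2, 59.7, 38.1, 41.9 and 52.2 CPM in synaptic and 484, 465, 545.97, 583 and 682 CPM in nuclear RNA. This gave a log2 fold change of -2.84 (SE 0.17, adjusted p = 2.1e-07). Conditional WT animals had 76.1, 72.3, 85.1 and 89.5 CPM in synaptic and 582, 586, 434.7 and 597 CPM in nuclear RNA, or -2.23 (SE 0.11, adjusted p = 1.6e-09). In germline WT animals the fractions overlapped, at 46.03 to 594 CPM in synaptic RNA and 343 to 597 CPM in nuclear RNA, and the log2 fold change was -1.80 (SE 0.32, adjusted p = 0.00044). The top of that synaptic range again comes from the WT males with a nuclear profile.

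Srsf6 had a log2 fold change of -2.74 in germline HET animals and Srsf5 -2.51. In the remaining groups Srsf6 lay between -1.65 and -2.07 and Srsf5 between -1.38 and -1.75. Srsf1, the founding member of the family, had -1.70 in germline WT, -2.002 in germline HET and -0.9997 to -1.19 in conditional animals. Srsf7 and Srsf10 were lower by similar amounts, at -1.19 to -1.80 and -0.95 to -1.58. The SR genes with the smallest differences were Srsf3, Srsf9, Srsf12 and Srsf4. Srsf3, one of the smallest SR proteins, which also helps mRNA leave the nucleus, had 66.4, 73.2, 54.9, 54.2 and 65.5 CPM in synaptic and 174, 165, 174, 167 and 174 CPM in nuclear RNA of germline HET animals. Its log2 fold changes ran from -0.50 in conditional HET to -0.84 in germline HET animals, and all passed the test.

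**Figure D3:**
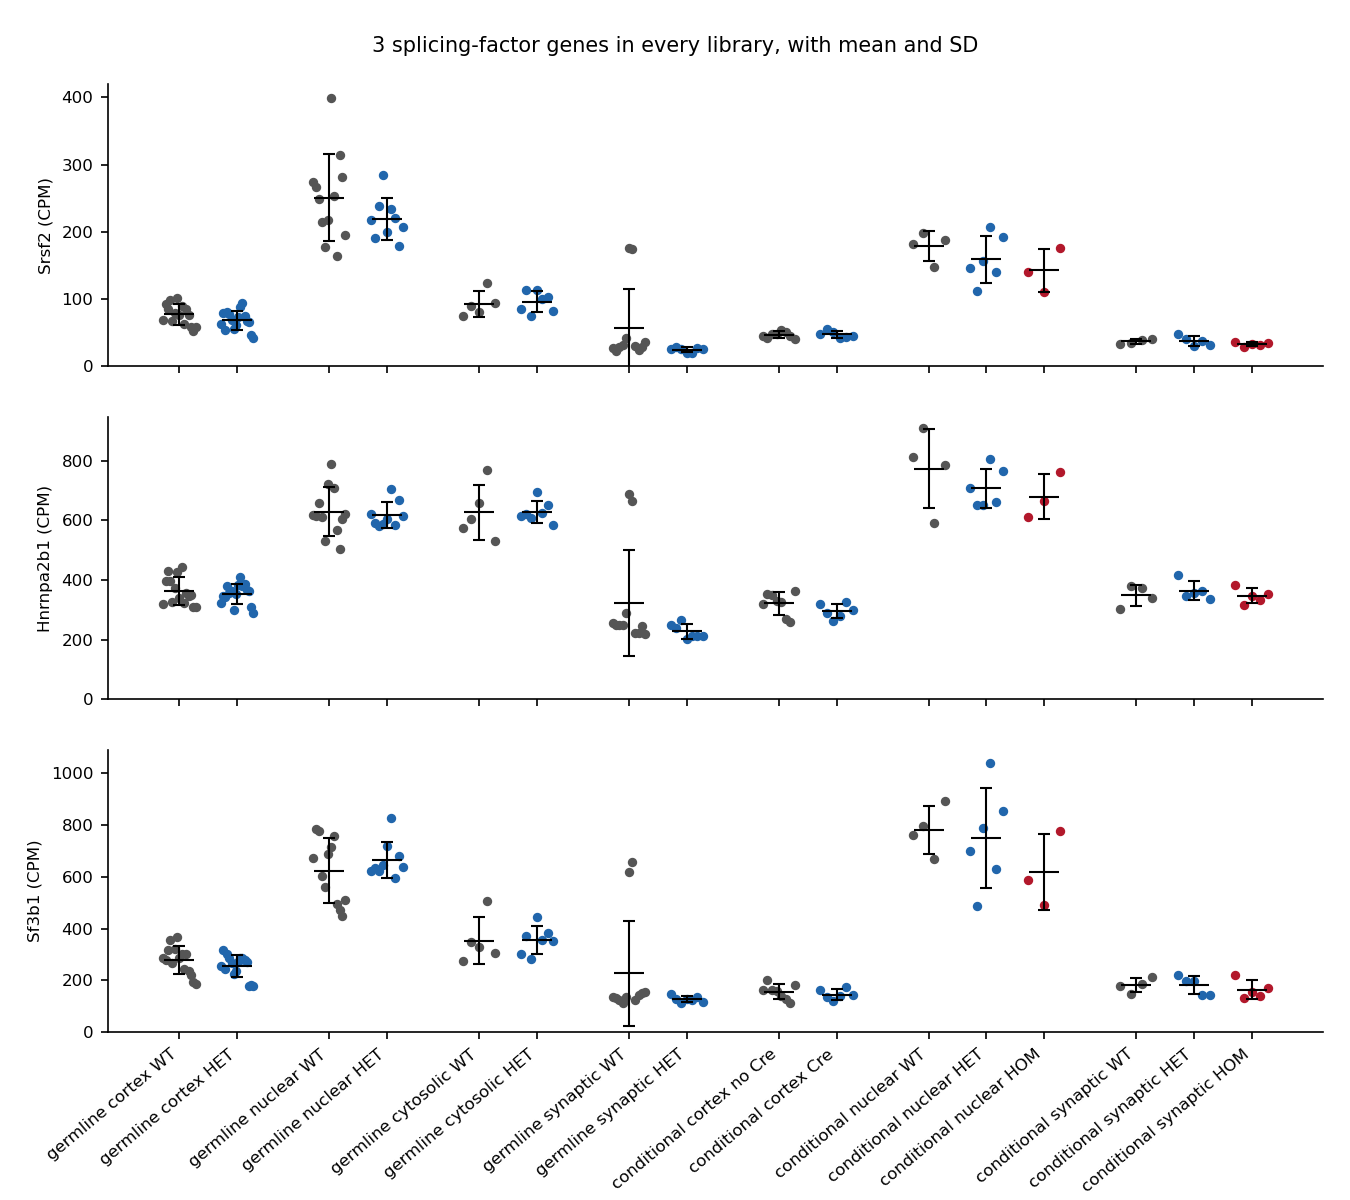
Level of Srsf2, Hnrnpa2b1 and Sf3b1 (CPM, vertical axes from 0) in every library by line, fraction and genotype, with horizontal marks at the mean and bars of 1 SD; grey is WT or no Cre, blue HET or Cre, red HOM. All 3 are highest in nuclear RNA or, for Hnrnpa2b1, equally high in cytosolic RNA, and in the germline synaptic WT group 2 libraries lie far above the other 9.

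Against nuclear RNA and on the TMM scale, the SF3 genes did the reverse of the SR genes. Their median log2 fold change was 0.55, 0.57, 0.50, 0.54 and 0.54 in germline WT, germline HET, conditional WT, HET and HOM animals, and 7, 6, 7, 7 and 6 of 9 passed as higher. Sf3b2 had 149, 151, 147, 141 and 167 CPM in synaptic and 171, 119, 115, 137 and 158 CPM in nuclear RNA of germline HET animals, so the fractions overlapped in CPM. In conditional WT animals it had 170, 161, 178 and 170 CPM in synaptic and 141, 143, 156 and 156 CPM in nuclear RNA, without overlap. On the TMM scale its log2 fold change was 0.76 (SE 0.11, adjusted p = 0.00011) in germline WT animals and 0.57 to 0.73 in the other 4 groups. Sf3a1 (0.54 to 0.63), Sf3a3 (0.42 to 0.57), Sf3b3 (0.33 to 0.64) and Sf3b4 (0.56 to 0.73) passed as higher in all 5. Sf3b5, a small SF3b subunit, had 0.97 and 1.00 in the germline groups and 0.20 to 0.41 in the conditional ones. Sf3b6, which contacts the branch point, passed in none, at -0.19 to 0.19.

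Sf3b1, at chr1:54985169-55027481 on the minus strand, was the exception in its family. In germline HET animals it had 146, 112, 126, 123 and 135 CPM in synaptic and 622, 621, 647, 720 and 827 CPM in nuclear RNA. The log2 fold change was -1.80 (SE 0.12, adjusted p = 4.9e-07). Conditional WT animals had 180, 146, 184 and 213 CPM in synaptic and 763, 797, 667 and 893 CPM in nuclear RNA, and the log2 fold change was -1.58. The fractions did not overlap in either group. Conditional HOM animals had 222, 133 and 153 CPM in synaptic and 586, 490 and 779 CPM in nuclear RNA, with a log2 fold change of -1.37. In germline WT animals it was -1.28 (SE 0.23, adjusted p = 0.00036).

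Within the hnRNP genes, 9 of 20 were lower in all 5 comparisons (Hnrnpa1, Hnrnpa2b1, Hnrnpdl, Hnrnph1, Hnrnph3, Hnrnpl, Hnrnpll, Hnrnpm and Hnrnpu) and 3 were higher in all 5 (Hnrnpa0, Hnrnpk and Hnrnpul2). Among all genes tested in all 5, 22.5% were lower and 20.5% higher each time. The median of the hnRNP family lay between -0.34 and 0.01. Hnrnph1 and Hnrnph3, which bind runs of G, were lower by the most. In germline HET mice Hnrnph1 had 559 ± 59.2 CPM (SD, n = 9) in nuclear and 104.0 ± 12.5 CPM (SD, n = 7) in synaptic libraries, without overlap. In WT mice it had 460.5 to 869 CPM (median 570.3, n = 12) in nuclear and 93.5 to 606 CPM (median 111, n = 11) in synaptic libraries, which overlapped through the males with a nuclear profile. Its log2 fold changes lay between -1.04 and -1.83. Those of Hnrnph3 lay between -1.13 and -1.96. Hnrnpu, a nuclear scaffold protein, had -0.73 to -1.12. Hnrnpl, an hnRNP with a poison exon, had -0.53 to -1.03. Hnrnpdl, a gene whose own protein acts on its transcript, had -0.85 to -1.42.

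Hnrnpa2b1, at chr6:51460932-51469894 on the minus strand, was lower by a smaller amount. Germline HET animals had 249, 266, 202, 211 and 212 CPM in synaptic and 623, 580, 588, 604 and 705 CPM in nuclear RNA, without overlap. Conditional WT animals had 302, 380, 372 and 340 CPM in synaptic and 813, 910, 590 and 785 CPM in nuclear RNA, again without overlap. Its log2 fold change was -0.56 (SE 0.13, adjusted p = 0.0024) in germline WT, -0.84 in germline HET and -0.39 to -0.61 in conditional animals. In conditional HOM animals the call was lost without either of 2 of the 3 animals (adjusted p = 0.095 and 0.11). Hnrnpa0 differed the other way. It had 134, 161, 129, 126 and 145 CPM in synaptic and 119, 104, 96.3, 98.5 and 100 CPM in nuclear RNA of germline HET animals, and 0.57 to 1.03 on the log2 scale over the 5 groups. Hnrnpk, which binds C-rich RNA, had 0.49 to 0.86, and Hnrnpul2 0.54 to 0.82. Hnrnpd, a regulator of mRNA stability also known as AUF1, did not pass in any group, at 0.01 to 0.11.

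Among snRNP genes Snrpn stood out, with the largest positive value of all 54 genes in germline WT, germline HET and conditional WT animals. In germline HET animals it had 203, 275, 186, 179 and 201 CPM in synaptic and 153, 141, 103, 137 and 134 CPM in nuclear RNA, without overlap. Conditional WT animals had 230, 232, 245 and 250 CPM in synaptic and 171, 170, 239 and 180 CPM in nuclear RNA, which overlapped through 1 nuclear library at 239 CPM. Conditional HOM animals had 228, 224 and 235 CPM in synaptic and 236, 281 and 219 CPM in nuclear RNA, and these overlapped. Its log2 fold change was 1.18 in germline WT (adjusted p = 0.00016), 1.25 in germline HET (5.8e-06), 0.88 in conditional WT (2.4e-06), 0.59 in conditional HET (0.00074) and 0.41 in conditional HOM animals (0.026). Whether the last 2 differ from conditional WT was tested by the interaction of fraction and genotype, and neither passed. Snrpd3, an Sm core protein, was also higher in all 5 groups (0.47 to 0.93). Snrpa1, a protein of the U2 snRNP, was lower in all 5 (-0.65 to -1.31). Snrpf was lower in all 5 as well, but it had only 0.871 ± 0.448 CPM (SD, n = 12) in germline nuclear WT libraries and less in synaptic ones, and single animals decided its call in germline WT and conditional HET animals (adjusted p up to 0.14). Of the U2AF genes, U2af1, which reads the AG at the end of an intron, was lower in all 5 (-0.36 to -0.62). U2af2, its larger partner, passed in none (-0.03 to -0.20), and U2af1l4 was too low to be tested.

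The scaling of the 2 fractions decides what counts as higher, and why their scaling factors differ was not tested. TMM scaling factors were 0.76 to 1.08 in germline WT synaptic and 1.09 to 1.31 in the nuclear libraries. With library totals in place of TMM factors, a choice made after seeing the data, the median of all genes moved by -0.50 to -0.61. The share of higher among the called genes then fell from 46.7, 47.3, 47.6, 48.4 and 47.9% to 15.1, 19.2, 18.9, 17.2 and 15.3%. All 11 SR genes were lower under both scalings in all 5 comparisons. Of the members, 3, 4, 2, 0 and 0 were then called higher, where 9.71, 13.5, 13.1, 12.2 and 8.83% of all genes were. In turn 35, 38, 36, 38 and 35 members were lower, where 54.6, 56.8, 56.2, 58.7 and 48.9% of all genes were. The median of SF3 genes became 0.05, -0.04, -0.04, -0.00 and 0.03. The median SF3 gene was therefore higher than the typical gene in synaptic RNA, while its share of the library was about the same in both fractions. The sum over the 9 SF3 genes, which includes Sf3b1, was lower in synaptic RNA. Its mean was 1026 CPM in nuclear and 492 CPM in synaptic libraries of germline HET mice, and 1153 and 572 CPM in conditional WT mice.

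**Figure D4:**
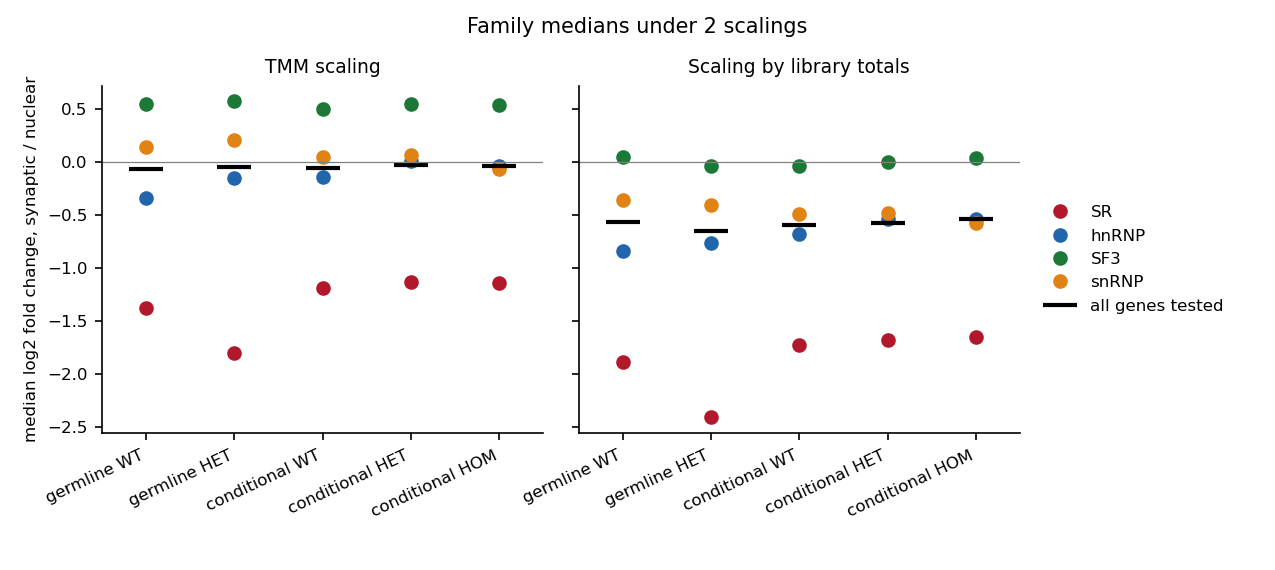
Median log2 fold change of synaptic over nuclear RNA (vertical axis) of SR, hnRNP, SF3 and snRNP genes in the 5 animal groups, under TMM scaling (left) and scaling by library totals (right); black marks are the medians of all genes tested. SR genes lie lowest in both panels, while SF3 genes move from 0.50 to 0.57 on the left to about 0 on the right.

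Other contents of the fractions moved with this contrast. Nuclear-retained RNAs were lower in synaptic RNA by a median of 2.65 to 3.87 in the germline groups and 1.94 to 2.04 in the conditional groups on the log2 scale. All 11 endothelial and mural cell markers were lower in all 5 comparisons, with medians from -3.19 to -4.62, and none of them was at 0 in the synaptic groups. All 8 microglial markers were higher in all 5, and of 7 meningeal markers 7, 7, 5, 2 and 4 were lower. The summed level of the endothelial and mural markers was 1223 to 3087 CPM in germline nuclear WT and 79.6 to 751 CPM in synaptic WT libraries. In HET mice it was 1107 to 2121 CPM in nuclear and 71.9 to 122 CPM in synaptic libraries. The 9 mitochondrially encoded mRNAs tested were higher in synaptic RNA, and so were 13 to 18 of 20 mRNAs known from dendrites. The part of cell types in the values of the splicing genes was not tested.

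The cytosolic fraction was counted in a table of its own, so its levels stand beside the others without a test. Its WT libraries also carry other animal numbers and another batch label than the nuclear and synaptic ones. Fraction, animals and batch thus cannot be told apart in these contrasts. In germline WT mice the mean CPM of 9 of 11 SR genes was lower in cytosolic than in nuclear RNA, with a median of -0.83 on the log2 scale over the 11. Srsf3 (191 against 184 CPM, log2 0.06) and Srsf12 (33.2 against 29.8 CPM, log2 0.16) had the higher mean in cytosol. In 5 of 11 SR genes all cytosolic libraries lay below all nuclear ones. The same was true of 33.4% of 16643 genes, while in 18.7% all cytosolic libraries lay above. Srsf2 had 92.5 ± 19.3 CPM (SD, n = 5) in cytosolic WT libraries and 250.5 ± 64.9 CPM (SD, n = 12) in nuclear ones. In the 9 synaptic WT libraries without the 2 doubtful males it had 30.1 ± 5.68 CPM. SF3 genes went the other way, with a median of 0.83 and all cytosolic libraries above all nuclear ones in 6 of 9. Sf3b2 had 278 ± 29.7 CPM in cytosolic and 137 ± 18.4 CPM in nuclear WT libraries. Snrpn had 448 ± 39.1 and 135 ± 25.4 CPM, and Hnrnpk 467 ± 44.6 and 205 ± 25.5 CPM. Hnrnpa2b1 was at the same level in both, at 627 ± 92.1 and 630 ± 81.2 CPM. Sf3b1, at 353.3 ± 90.6 CPM, lay between its synaptic and nuclear levels. Marker lists of other cell types differed between these WT fractions as well. For all 11 endothelial and mural markers every cytosolic library lay below every nuclear one, and their sum was 52.5 to 79.9 CPM in cytosol and 1223 to 3087 CPM in nuclei. The same was true of 6 of 8 microglial markers (80.7 to 115 against 279.5 to 754 CPM), 6 of 9 oligodendrocyte markers (1464 to 2346 against 3910 to 9034 CPM) and 4 of 9 astrocyte markers (2524 to 3578 against 3327 to 7683 CPM). Of the oligodendrocyte markers 2 had every cytosolic library above every nuclear one. So did 6 of 10 excitatory neuron markers (1 below) and 4 of 9 interneuron markers (4 below). None of these markers was at 0 in cytosol, and their part in the values of the splicing genes was not tested.

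Genes that work with the SR proteins followed the same pattern between synaptic and nuclear RNA. Of 27 SR protein kinases and partners, 20, 23, 23, 23 and 18 were lower and 3, 3, 4, 3 and 3 higher, with medians of -0.90, -1.47, -0.80, -0.84 and -0.59. As shares these are 66.7 to 85.2% lower and 11.1 to 14.8% higher, where 26.9 to 38.5% of all genes were lower and 24.7 to 34.5% higher. Clk1 and Clk4, kinases that phosphorylate SR proteins and whose own transcripts keep introns in the nucleus, had -3.74 (SE 0.19) and -3.46 (SE 0.16) in germline HET animals. Clk4 had -2.59 in conditional HOM animals. Luc7l3 (-2.23) and Luc7l2 (-1.89) led in conditional WT animals, and Pnisr had -2.53 and -2.50 in conditional HET and HOM animals. In germline WT animals Srek1 had -1.92 and Tra2b, a regulator of exon choice, -0.72.

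The other spliceosome subunits were mixed. Of 53, 25, 24, 20, 16 and 16 were higher and 14, 17, 18, 15 and 12 lower, with medians between -0.02 and 0.22. In the conditional groups 37.7, 30.2 and 30.2% were thus higher, near the 31.9, 31.5 and 24.7% of all genes. Prpf8, the scaffold at the catalytic core, was higher in germline WT (1.05, SE 0.093) and conditional WT animals (1.46, SE 0.086), and Snrnp200, its helicase partner, had 0.95. Snrnp70, a protein of the U1 snRNP, had -3.40 and Prpf39 -3.33 in germline HET animals. Snrnp48, of the minor spliceosome, had -2.63, -2.40 and -2.88 in conditional WT, HET and HOM animals. Of 30 neuronal splicing regulators tested, 11, 12, 10, 9 and 7 were higher and 14, 15, 15, 12 and 8 lower. The higher shares, 23.3 to 40%, lie near those of all genes, and the lower shares are 26.7 to 50%. Rbfox1 (1.03) and Nova2 (0.78) were higher in germline WT animals, while Rbm4b (-2.59) and Rbm5 (-2.12) were lower in germline HET animals. Of 11 FET and paraspeckle genes 6 or 7 were lower in each group (54.5 to 63.6%). Higher were 2, 3, 3, 3 and 1 of them (9.09 to 27.3%). Of all genes 26.9 to 38.5% were lower and 24.7 to 34.5% higher. Tardbp, which encodes TDP-43, had -1.32, -0.87 and -0.996 in germline HET, conditional WT and conditional HOM animals, and Matr3 was higher in conditional HET animals (0.84).

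The families also differ in their annotated transcripts, a property that the choice of genes did not use. An annotated transcript marked for nonsense-mediated decay exists in 9 of 11 SR genes (81.8%), in 50% of hnRNP genes, 33.3% of snRNP genes and 11.1% of SF3 genes, against 26.8% of 14963 protein-coding genes tested. Members with such a transcript (n = 26) had a median of -0.67 in germline WT animals and 76.9% of them were lower in synaptic RNA. Those without (n = 28) had a median of 0.35 and 21.4% were lower. Over all genes tested the medians were -0.10 with and 0.12 without such a transcript, and 36.5 and 29.4% were lower. Retained-intron transcripts are annotated for 74.1% of the members and 55.5% of all genes. Members with one had a median of -0.13 and members without one -0.25. Members at or under the median gene length of 4402 bases (n = 32) had a median of 0.11, and longer ones (n = 22) -0.55. These properties go together in the same genes and were not separated. Antisense genes overlap exons of 19 members, such as Mettl23 and Mfsd11 at Srsf2 and Ccdc38 at Snrpf. Where counting ignored strand, their reads cannot be told apart. Genes on the same strand overlap exons of 6 members, among them Snrpn (Snurf). How reads shared there were counted was not tested.

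No splicing-factor gene passed the test of Chd8 genotype in any of the 9 comparisons. In germline cortex 0 of 53 passed in edgeR's quasi-likelihood test, where 0.334% of 17074 genes did, and 0 passed in DESeq2. At an unadjusted p under 0.05 there were 7, 5 higher and 2 lower in HET mice, while 9.25% of all genes had such a p. Snrpd1, an Sm core protein, had 20.6 ± 2.01 CPM (SD, n = 15) in WT and 22.9 ± 2.495 CPM (SD, n = 16) in HET cortex, a log2 fold change of 0.16 (SE 0.055, adjusted p = 0.29). Srsf9 had 40.6 ± 4.71 CPM in WT and 37.1 ± 4.99 CPM in HET cortex, or -0.13 (SE 0.057, adjusted p = 0.45). Hnrnpa1 had 211 ± 29.9 and 194 ± 23.1 CPM, or -0.12 (adjusted p = 0.48). All 3 groups of values overlapped widely. Sf3b5 had 28.5 ± 4.73 and 31.6 ± 4.26 CPM, or 0.16, and U2af2 -0.07.

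Of the genes that mark the set, Srsf2 had 76.9 ± 15.4 CPM in WT and 68.2 ± 14.3 CPM in HET cortex, with a log2 fold change of -0.16 (SE 0.093, adjusted p = 0.61). Hnrnpa2b1 had 363 ± 45.6 and 353.1 ± 33.7 CPM, or -0.04. Sf3b1 had 277 ± 53.7 and 254.6 ± 43.6 CPM, or -0.10. The SR family had a median of -0.13 with 10 of 11 genes below 0, and the median of all genes was -0.00. By batch, the SR median was -0.26 in CHD807 and -0.03 in CHD80456. The nuclear-retained list moved with it, at a median of -0.30, as did 25 of 27 SR kinases and partners (median -0.13). The snRNP genes had a median of 0.09, with 9 of 11 above 0. The part of the nuclear-retained level in these values was not tested in cortex.

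In the germline nuclear fraction 0 of 55 genes passed in edgeR or DESeq2, where edgeR called 0.0151% of all genes, and 2 had an unadjusted p under 0.05 (all genes 7.38%). Hnrnpf, which binds runs of G, had 46.4 ± 6.31 CPM (SD, n = 12) in WT and 38.6 ± 5.34 CPM (SD, n = 9) in HET nuclei, a log2 fold change of -0.24 (SE 0.084, adjusted p = 0.47). Sf3b5 had 12.4 ± 2.56 and 14.4 ± 2.98 CPM, or 0.26 (adjusted p = 0.66). Both pairs of groups overlapped. Srsf2 had -0.15 (SE 0.11), Sf3b1 0.11, Hnrnpa2b1 0.00, Srsf11 0.16 and Snrpd2 0.16. The SR median was -0.03. In the cytosolic fraction 0 of 54 passed in edgeR or DESeq2 (all genes 0%), and none had an unadjusted p under 0.05 (all genes 3.28%). Srsf2 had 92.5 ± 19.3 CPM (SD, n = 5) in WT and 95.6 ± 15.5 CPM (SD, n = 7) in HET cytosol, or 0.07 (SE 0.12), and Sf3b1 had 0.06.

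In the germline synaptic fraction the values depended on the 2 WT males with a nuclear profile. With all libraries 0 of 53 passed in edgeR or DESeq2 (all genes 0%), and 3 had an unadjusted p under 0.05 (all genes 11%): Srsf9 (-0.32, SE 0.12, adjusted p = 0.35), Hnrnpa1 (-0.29, adjusted p = 0.35) and Snrpa1 (-0.23, adjusted p = 0.44). All 11 SR genes were below 0, with a median of -0.30. Without the 2 males the SR median was -0.18, again with all 11 below 0, and 0 members passed where 0.842% of all genes did (smallest member adjusted p = 0.060). In the fit with all libraries the median of the nuclear-retained list was -0.72. With its level as a covariate the SR median was 0.03, with 7 of 11 above 0, and with 6 levels of batch in place of 3 it was 0.16, with 10 above. The direction of the SR genes in this comparison is thus not settled. Srsf2 had 22.6 to 41.3 CPM in 9 WT libraries, 175 and 174 CPM in the 2 males, and 24.3 ± 3.55 CPM (SD, n = 7) in HET libraries.

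Conditional deletion gave no call either, in edgeR or in DESeq2. In conditional cortex 0 of 54 genes passed (all genes 0%) and none had an unadjusted p under 0.05 (all genes 3.08%). Srsf2 had 46.8 ± 4.81 CPM (SD, n = 8) without Cre and 47.4 ± 4.89 CPM (SD, n = 6) with Cre, a log2 fold change of 0.00 (SE 0.084). Sf3b1 had -0.13 and Hnrnpa2b1 -0.14. The largest differences were those of Sf3b5 (0.27), Hnrnpu (-0.26) and Srsf5 (-0.25), and all 12 snRNP genes lay above 0 (median 0.09). In the nuclear and synaptic fractions HET and HOM mice were compared with the same WT libraries. Nuclear HET mice gave 0 of 54 (all genes 0%) and none at an unadjusted p under 0.05 (all genes 4.45%).

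Nuclear HOM mice gave 0 of 54 passed (all genes 0%) and 3 at an unadjusted p under 0.05, where 11.6% of all genes had one. Snrpn had 190 ± 32.9 CPM (SD, n = 4) in WT and 245 ± 32.3 CPM (SD, n = 3) in HOM nuclei, or 0.46 on the log2 scale (SE 0.17, adjusted p = 0.43). Hnrnpa0 had 0.41. Hnrnpm, a splicing repressor, had 230 ± 26.9 and 166 ± 25.3 CPM, or -0.42 (SE 0.15, adjusted p = 0.43), and its groups did not overlap (194 to 254 against 142 to 192 CPM). The SR median was -0.20 there, beside -0.35 for the nuclear-retained list. Srsf2 had 179 CPM in WT, 159 in HET and 142 in HOM nuclei, with log2 fold changes of -0.12 and -0.26. Synaptic HET mice gave 0 of 53 (all genes 0%) and none at an unadjusted p under 0.05 (all genes 4.37%). Synaptic HOM mice gave 0 of 53 (all genes 0%) and 3 at an unadjusted p under 0.05 (all genes 4.96%), all lower: Srsf6, Srsf7 (-0.33) and Snrpa1 (-0.35). Srsf6 had 66.4 ± 10.5 CPM (SD, n = 4) in WT and 51.6 ± 6.95 CPM (SD, n = 5) in HOM synaptic RNA, or -0.34 (SE 0.13, adjusted p = 0.92).

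**Figure D5:**
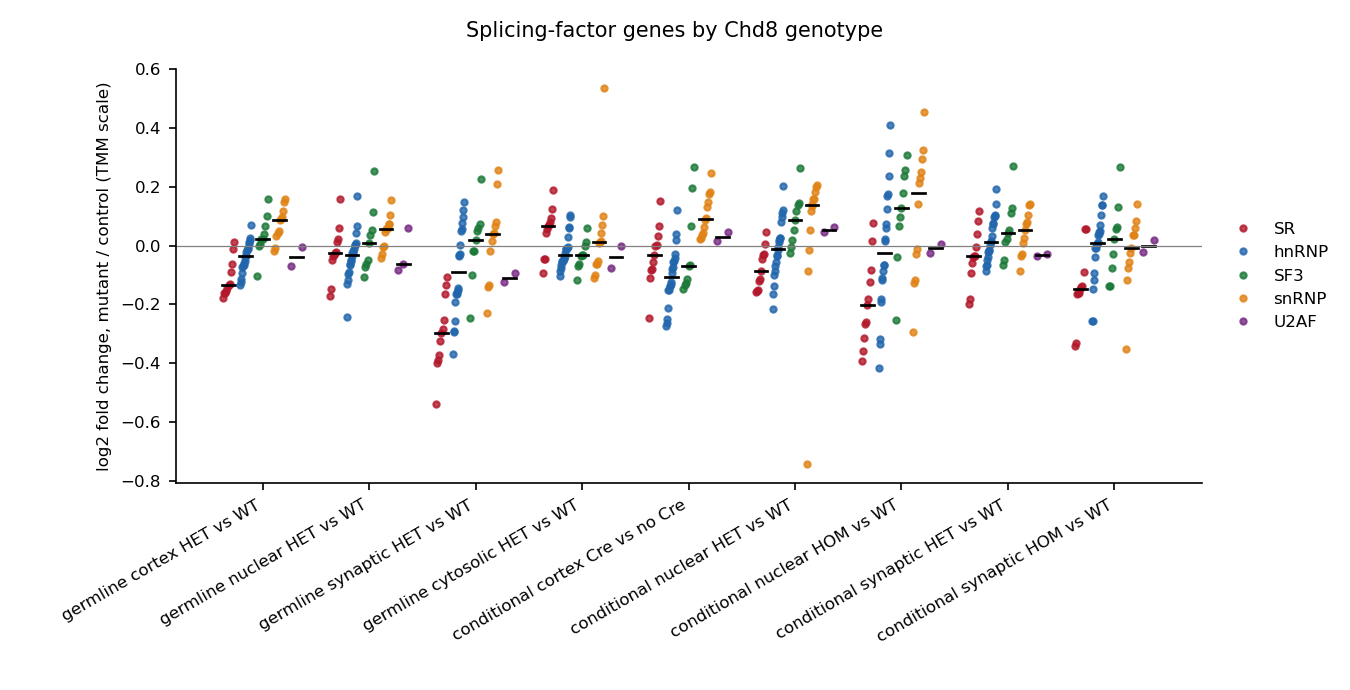
Log2 fold change of mutant over control (TMM scale, vertical axis) of every gene tested, by family, in the 9 genotype comparisons; each point is 1 gene and black marks are family medians. No point passed an adjusted p of 0.05, and the SR genes lie furthest from 0 in germline synaptic RNA (median -0.30), where 2 WT libraries have a nuclear profile.

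Whether genotype changed the ratio of synaptic to nuclear RNA was tested as an interaction in animals with both fractions. None of 55 genes passed in germline mice, nor of 54 in conditional HET or HOM mice, and 0% of all genes did in each. The smallest unadjusted p-values belonged to Srsf11 in germline mice (-1.06, SE 0.47, adjusted p = 0.59) and Snrpn in conditional HOM mice (-0.48, adjusted p = 0.89), apart from U2af1l4, which is near 0 in all libraries. The SR median of the germline interaction was -0.38, and -0.15 without the 3 animals in doubt. In conditional mice it was 0.09 for HET and 0.01 for HOM. The SR pattern between fractions was thus present in every genotype, and the tests found no gene for which its size depended on genotype at an adjusted p under 0.05. Misses of this threshold do not show that the ratios were equal.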

How the data were processed

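Fractions were made with synaptosome and nuclear extraction reagents and sequenced as read pairs, per the labels' protocols. Of 127 labelled libraries 123 were used, and 4 cytosolic ones were not analysed here. The authors deposited raw counts per gene, and STAR 2.5.4b, featureCounts 2.0.0 and GRCm38 are named in the submitters' processing notes. The command line in the header of the conditional cortex table holds no strand or pair option, and elsewhere these settings are not given in the sources used here. Even counts were in excess, so mates were probably counted separately. Symbols were found for 54723 gene IDs, and a Cre row was left out. All pairs of libraries within a group differed by more than counting noise (chi-square over degrees of freedom at least 4.66).

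Comparisons used edgeR 4.0.16 (quasi-likelihood F test, TMM, filterByExpr, R 4.3.3) over all genes, tested on simulated data, with Benjamini-Hochberg adjustment; genes were called at an adjusted p under 0.05. Covariates were sex, and batch in germline cortex (2 labels) and germline nuclear and synaptic RNA (3 groups of labels). Synaptic and nuclear libraries were paired by the animal number in the library names, with animal as a block. Levels are CPM of deposited counts, or RPKM over the deposited exon length, not scaled across tables. Alternatives were DESeq2 1.42.0, RLE scaling, no count filter, other covariates, blocks, libraries left out and, added after seeing the data, scaling by library totals.

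The members and gene lists were chosen with earlier results of these data known. Named were Srsf2, Hnrnpa2b1 and Sf3b1, the 6 largest called changes each way, the smallest p and highest cortex level of each family, and the 2 smallest p of each pathway list with a call. Other members were named after their values were seen. Annotation and sequences came from GENCODE M21.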

Additional observations from a re-analysis of the deposited data

Results flagged for a closer look

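In groups of 4 to 10 libraries, summed CPM levels of each family and of all 55 genes, and the CPM of Srsf2, Hnrnpa2b1 and Sf3b1, were checked for a library far from the others of its group, in 99 checks of which chance would mark about 1 in 20. In all 8 values stood out. Germline nuclear HET male replicate 3 had 3433 CPM of SR genes (others 2541 to 2885), 5377 CPM of hnRNP genes (4500 to 4936), 1206 CPM of SF3 genes (958 to 1083) and 10622 CPM of all members (8556 to 9278), so it was high in most families at the same time. Its Malat1 level was 1276 CPM. Germline cytosolic WT male replicate 4 had 2233 CPM of SR genes, against 1330 to 1474 in the other 4 libraries, and 489.1 CPM of Malat1. Germline synaptic HET female replicate 3 had 514 CPM of snRNP genes (others 352.8 to 388). Conditional nuclear WT female replicate 1 had 482.1 CPM of snRNP genes (411 to 415), and conditional synaptic HET female replicate 1 had 129 CPM of U2AF genes (94.3 to 104).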

How the results depend on the processing

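Of the named results called between synaptic and nuclear RNA (80), 828 of 861 alternative values kept direction and call, 33 lost the call and none reversed. Scaling by library totals accounts for 22 of these losses, and leaving out 1 animal for the other 11 (Snrpf, near 1 CPM, and Hnrnpa2b1 in conditional HOM animals). All 11 SR genes were lower in each of 53 alternative fits of these 5 comparisons. Under library totals the members higher were 3, 4, 2, 0 and 0, and those lower 38 in germline HET and 38 in conditional HET animals. No genotype comparison gained a member except germline synaptic RNA without a count filter, where 1 was called (Srsf5, -0.52, adjusted p = 0.035). That fit holds more genes than the filtered one, and what made the call was not tested. Counts over all genes varied more: germline cortex had 57 calls in edgeR, 97 in DESeq2 and 20 without a filter, and germline nuclear RNA 3 in edgeR, 18 in DESeq2 and 284 without a filter.

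Named genes near 0 changed sign, and the cause was not tested. In germline cortex Hnrnpa2b1 had 0.00485 in batch CHD80456 alone. In germline nuclear RNA with 6 batch levels Srsf2 had 0.0239 and Hnrnpa2b1 -0.0492, and Hnrnpa2b1 had -0.0036 without a filter and -0.0074 with genotype alone. In germline synaptic RNA, 6 batch levels and the nuclear-retained covariate gave 0.175 and 0.0507 for Srsf2, 0.0922 and 0.0166 for Hnrnpa2b1, 0.283 and 0.125 for Sf3b1, and -0.117 and -0.0796 for Sf3b5. Germline cytosolic Hnrnpa2b1 had -0.0046 with genotype alone. In conditional cortex Srsf2 had -0.0052 in DESeq2, -0.0052 with RLE scaling and -0.000405 with genotype alone. In conditional synaptic HOM mice Hnrnpa2b1 had -0.0041 without the animal with 2 genotype labels.

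A block for the replicate number of the titles changed no call of a member. Whether the numbers pair the samples cannot be told from so few pairs. Same-numbered libraries correlated at over 0.1 in 8 of 14 pairs in germline cortex (median 0.15). In each other comparison at most 2 pairs did, such as 2 of 9 in germline nuclear RNA and 2 of 4 in conditional nuclear HET mice. With the block Hnrnpa2b1 had -0.0390 and Snrpd2 -0.0057 in germline nuclear RNA, Srsf2 -0.0126 in conditional cortex and U2af2 0.0101 in conditional synaptic HOM mice, each a change of sign.

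Leaving out 1 library or animal at a time turned the sign of some values near 0 without a call. The ranges were -0.0288 to 0.0293 for Hnrnpa2b1 in germline nuclear RNA, -0.0471 to 0.0964 for Hnrnpa2b1 and -0.0192 to 0.166 for Sf3b1 in cytosolic RNA, and -0.0286 to 0.0268 for Srsf2 and -0.000207 to 0.0983 for U2af1 in conditional cortex. In conditional nuclear RNA they were -0.116 to 0.0999 for Sf3b1 in HET and -0.0704 to 0.0393 for U2af1 in HOM mice. In conditional synaptic RNA they were -0.0284 to 0.117 for Srsf2, -0.0795 to 0.112 for Sf3b1 and -0.0796 to 0.00057 for U2af2 in HET mice, and -0.0560 to 0.0902 for Hnrnpa2b1 and -0.0499 to 0.0093 for U2af2 in HOM mice. For the interactions they were -0.0342 to 0.297 for Sf3b1 and -0.125 to 0.0045 for Sf3b2 in conditional HET mice, and -0.0394 to 0.266 for Hnrnpa2b1, -0.0782 to 0.367 for Sf3b1 and -0.203 to 0.0075 for U2af1 in conditional HOM mice.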
